A study of Mus musculus with 7 samples.

Results

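The genes described here are 10 members of the Wnt/β-catenin pathway that the pathway itself switches on: the feedback inhibitors *Axin2*, *Nkd1*, *Rnf43*, *Znrf3*, *Notum*, *Wif1* and *Apcdd1* and the transcription factors *Lef1*, *Tcf7* and *Sp5*. They were chosen as a list of names, with earlier results of these data known, and are the rows of the gene table whose Ensembl identifier maps to these symbols. All 10 were found among the 43346 identifiers of the table, and all 10 passed the filter on low counts that left 15810 genes to be tested.

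RNA was sequenced from 7 whole colon tumors, 4 from recipients of *Dnmt3a+/Δ* bone marrow (BM; heterozygous, written Dnmt3a(+/-) in the labels) and 3 from recipients of *Dnmt3a+/+* BM. The recipients were wild-type mice, which the labels give as C57BL6/J aged 8 weeks and the study's methods as a congenic strain of another age, lethally irradiated before transplantation, and the donors carried Mx1-Cre, which deletes 1 *Dnmt3a* allele in the blood system once it is induced. All 7 mice had received the carcinogen azoxymethane (AOM) once, at 10 mg/kg, and then drinking water with 3% dextran sulfate sodium (DSS), which damages the colon lining, in 3 cycles, so that they developed colitis-associated cancer. The allele deletion is thus in the graft, whereas a whole tumor holds host epithelium and stroma together with graft-derived blood cells, and both groups share irradiation, AOM and DSS. The deposited names of the tumors begin with BMT18 or BMT8, and these prefixes are read here as 2 transplantation experiments. BMT18 gave *Dnmt3a+/+* BM tumors 1 and 2 and *Dnmt3a+/Δ* BM tumors 1 and 2. BMT8 gave *Dnmt3a+/+* BM tumor 3 and *Dnmt3a+/Δ* BM tumors 3 and 4. The deposited names of *Dnmt3a+/Δ* BM tumors 2, 3 and 4 carry an extra suffix that no other tumor has, and the labels do not explain it. Whatever the suffix marks was not tested and cannot be told apart from other differences between these tumors and the rest. Each tumor is 1 library and is taken as 1 replicate.

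In canonical Wnt signaling, a Wnt ligand bound to Frizzled and LRP receptors blocks the destruction complex that otherwise degrades β-catenin. The stabilized β-catenin enters the nucleus, binds TCF/LEF factors and turns on target genes. Several of these targets act back on the pathway: AXIN2 rebuilds the destruction complex, NKD1 binds Dishevelled, RNF43 and ZNRF3 remove Frizzled from the cell surface, and NOTUM, WIF1 and APCDD1 act on Wnt ligands or at the receptor. In the intestinal epithelium, where Wnt signaling maintains the crypt, their transcripts are widely used as readouts of the pathway.

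Transcript levels of all 10 genes were higher in the *Dnmt3a+/Δ* BM tumors, by a log2 fold change of 0.87 for *Rnf43* to 2.33 for *Lef1*, with a median of 1.67 against 0.0025 over all 15810 genes. Fold changes and p-values are from edgeR's quasi-likelihood test, and CPM (counts scaled to the same library total for each tumor) use trimmed mean of M-values (TMM) library sizes. Each of the 10 had an unadjusted edgeR p under 0.05 for higher expression, a mark that 5.83% of all genes reached (922 genes), while 5.20% (822 genes) reached it for lower expression. A log2 fold change over 1 was found for 8 of the 10, against 7.57% of all genes. After Benjamini-Hochberg adjustment over all genes, edgeR called none of the 10 at an adjusted p under 0.05 with an absolute log2 fold change over 1. It called 0% of all genes, and the adjusted p of 0.361 shared by 6 of the 10 was the lowest reached by any gene. DESeq2, the tool that the study used, called 6 of the 10 as higher at the same thresholds (*Axin2*, *Nkd1*, *Notum*, *Wif1*, *Lef1* and *Sp5*), against 1.51% of the genes it tested. These calls moved with single tumors: DESeq2 called 1 of the 10 without *Dnmt3a+/+* BM tumor 2 and 9 without *Dnmt3a+/Δ* BM tumor 1, and *Axin2* was called in only 1 of the 7 fits that left out a tumor. The share of all genes called in those fits is not given here, so these moves are not read as particular to the 10. For 8 of the 10, the lowest *Dnmt3a+/Δ* BM tumor lay above the highest *Dnmt3a+/+* BM tumor, which was the case for 6.12% of all genes, with 6.32% apart in the other direction. With 4 tumors against 3, an exact permutation test has 35 splits and cannot give a p below 0.0286. Where the exact p was above that, another split of the tumors gave a difference at least as large as the split by graft.

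**Figure D1:**
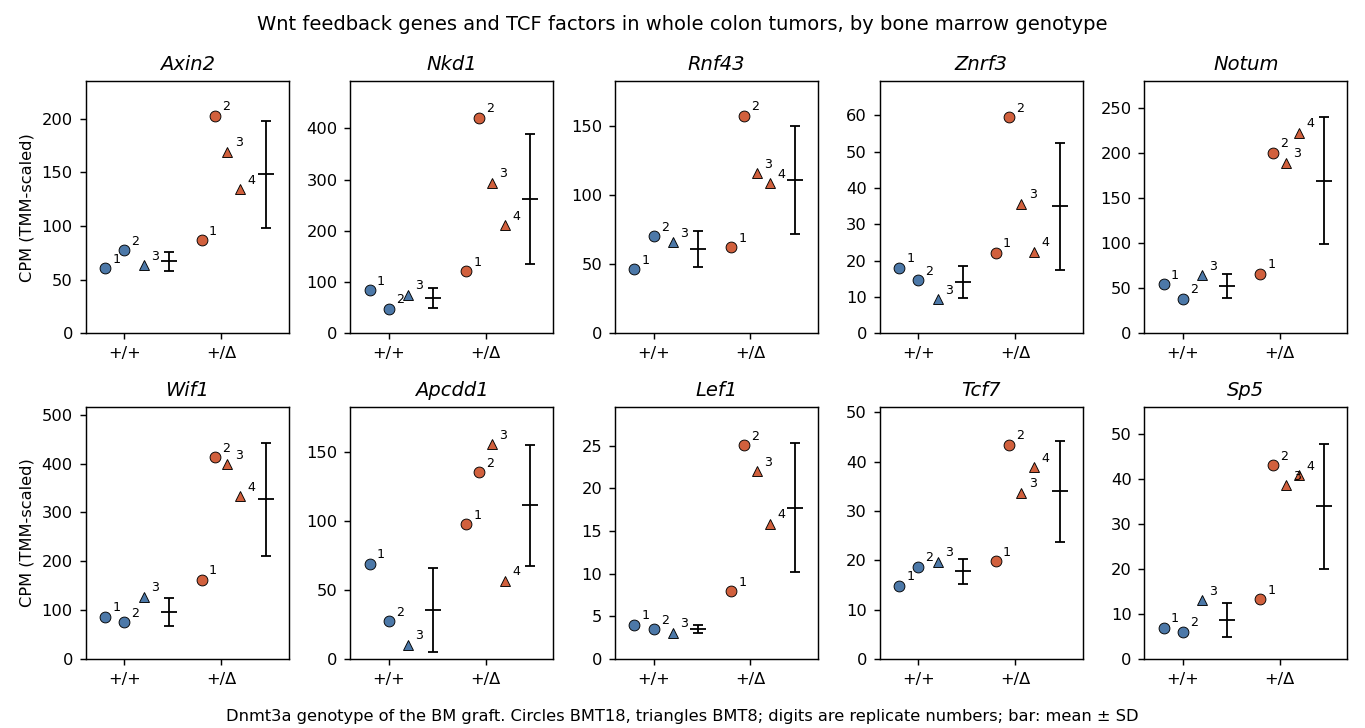
TMM-scaled CPM of each gene (vertical axis, linear, from 0) in the 3 *Dnmt3a+/+* BM tumors (blue) and the 4 *Dnmt3a+/Δ* BM tumors (orange), with circles for BMT18, triangles for BMT8, digits for the replicate number and bars for mean ± SD. All 4 orange points lie above all blue points in 8 panels, whereas the groups overlap for *Rnf43* and *Apcdd1*, and *Dnmt3a+/Δ* BM tumor 1 is the lowest orange point in 9 panels.

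Sequencing depth was 38472738 to 64314999 counts per tumor, and the 10 genes had between 101 and 20658 counts in each tumor, and none was at 0. No tumors were duplicates of each other. The closest pair of all 7 tumors, *Dnmt3a+/+* BM tumor 1 and *Dnmt3a+/Δ* BM tumor 1, came from different groups. These tumors correlated across genes with a Spearman rho of 0.984 and stood apart from the other 5 in keratins of stratified squamous epithelium. *Krt5*, a basal keratin, was at 5158 and 5963 CPM in them, at 927 to 1487 CPM in 4 others and at 0.081 CPM in *Dnmt3a+/Δ* BM tumor 2. *Epcam*, which marks epithelium, was at 1543 to 3239 CPM in all tumors, whereas *Ptprc*, which marks leukocytes, was at 6.57 to 21.7 CPM. *Dnmt3a* itself was at 24.3, 23.1 and 20.3 CPM in the *Dnmt3a+/+* BM tumors and at 27.8, 43.0, 28.3 and 22.0 CPM in the *Dnmt3a+/Δ* BM tumors (log2 fold change 0.43 ± 0.24 SE, edgeR adjusted p = 0.542). These whole-tumor values do not check the genotype label, since host cells keep both alleles. In whole tumors, fewer cells of a type and less RNA per cell cannot be told apart.

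The intracellular feedback inhibitors are *Axin2*, the scaffold of the destruction complex that is itself a β-catenin target, and *Nkd1*, a Dishevelled-binding antagonist. *Axin2* (chr11:108920349-108950783, plus strand, GRCm38) was at 60.6, 77.4 and 63.4 CPM in *Dnmt3a+/+* BM tumors 1 to 3 and at 86.6, 203, 169.3 and 134.1 CPM in *Dnmt3a+/Δ* BM tumors 1 to 4. Its groups did not overlap, but *Dnmt3a+/Δ* BM tumor 1 lay much closer to the control tumors than to the other 3 of its group. The log2 fold change of *Axin2* was 1.14 ± 0.29 (SE; edgeR adjusted p = 0.361; exact permutation p = 0.0571; DESeq2 adjusted p = 0.0311). *Nkd1* (chr8:88521354-88594884, plus strand) was at 83.8, 47.8 and 75.6 CPM with *Dnmt3a+/+* BM and at 122, 421, 294 and 211 CPM with *Dnmt3a+/Δ* BM. It repeated the order seen for *Axin2* within the *Dnmt3a+/Δ* BM group, with tumor 2 highest, then 3, then 4, then 1. Its log2 fold change was 1.92 ± 0.43 (SE; edgeR adjusted p = 0.361; exact permutation p = 0.0571; DESeq2 adjusted p = 0.0020). The paralogs were set beside them, and *Axin1*, which is not under the same feedback, had a log2 fold change of -0.16 ± 0.19 and *Nkd2* one of -0.09 ± 0.74 (SE; edgeR adjusted p = 0.797 and 0.980).

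*Rnf43* and *Znrf3* encode membrane E3 ubiquitin ligases that clear Frizzled from the cell surface and thereby lower the response to Wnt. *Rnf43* (chr11:87662722-87735539, plus strand) was at 46.2, 70.4 and 66.0 CPM with *Dnmt3a+/+* BM and at 62.4, 157, 116 and 108 CPM with *Dnmt3a+/Δ* BM. Here the groups overlapped, since *Dnmt3a+/Δ* BM tumor 1 lay below control tumors 2 and 3, and the log2 fold change of 0.87 ± 0.31 (SE; edgeR adjusted p = 0.407; exact permutation p = 0.114) was the lowest of the 10. *Znrf3* (chr11:5276324-5444847, minus strand) was at 18.05, 14.7 and 9.30 CPM with *Dnmt3a+/+* BM and at 22.2, 59.5, 35.6 and 22.5 CPM with *Dnmt3a+/Δ* BM. The groups did not overlap, although *Dnmt3a+/Δ* BM tumors 1 and 4 were only slightly above the highest control. The log2 fold change of *Znrf3* was 1.32 ± 0.41 (SE; edgeR adjusted p = 0.384), and it was the 1 gene of the 10 that reached the smallest exact permutation p of 0.0286. DESeq2 called neither ligase (adjusted p = 0.207 for *Rnf43* and 0.0760 for *Znrf3*). The log2 ratio of *Rnf43* to *Znrf3* within a tumor averaged 2.14 ± 0.74 (SD, n = 3) in the controls and 1.72 ± 0.39 (SD, n = 4) in the *Dnmt3a+/Δ* BM tumors, a difference inside the spread between tumors (exact permutation p = 0.371).

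The inhibitors that act outside the cell are *Notum*, a secreted deacylase that strips the lipid from Wnt ligands, *Wif1*, a secreted protein that binds them, and *Apcdd1*, a membrane glycoprotein that interacts with Wnt and its co-receptor. *Notum* (chr11:120653788-120661175, minus strand) was at 54.2, 38.2 and 64.6 CPM with *Dnmt3a+/+* BM and at 66.0, 199.9, 189 and 222 CPM with *Dnmt3a+/Δ* BM. *Dnmt3a+/Δ* BM tumors 2 to 4 lay well above all controls, and tumor 1 lay barely above the highest of them. The log2 fold change of *Notum* was 1.69 ± 0.42 (SE; edgeR adjusted p = 0.361; exact permutation p = 0.0571; DESeq2 adjusted p = 0.0081). An antisense transcript, *Notumos*, overlaps exons of *Notum* and had 3071 counts over all tumors beside 36558 for *Notum*, and the strand setting of the counting is not given in the sources used here. *Wif1* (chr10:121033960-121100650, plus strand) was at 86.3, 74.8 and 128 CPM with *Dnmt3a+/+* BM and at 162.5, 413.5, 399 and 333 CPM with *Dnmt3a+/Δ* BM. Its groups did not overlap, and its log2 fold change of 1.76 ± 0.36 (SE; edgeR adjusted p = 0.361; exact permutation p = 0.0571; DESeq2 adjusted p = 0.0011) was the highest of the 3 extracellular inhibitors.

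*Apcdd1* (chr18:62922231-62961179, plus strand) varied most among the control tumors, at 69.0, 27.3 and 10.46 CPM, and was at 98.0, 135, 156 and 56.8 CPM in the *Dnmt3a+/Δ* BM tumors. Its groups overlapped, because *Dnmt3a+/Δ* BM tumor 4 lay below control tumor 1, and it was the 1 gene of the 10 in which *Dnmt3a+/Δ* BM tumor 1 was not the lowest of its group. The log2 fold change of *Apcdd1* was 1.65 ± 0.63 (SE; edgeR adjusted p = 0.421; exact permutation p = 0.0857; DESeq2 adjusted p = 0.119). It ranged from 1.22 without control tumor 3 to 2.55 without control tumor 1, and the unadjusted p stayed under 0.05 in only 3 of the 7 fits that left out 1 tumor.

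Among the transcription factors, *Lef1* and *Tcf7* are DNA-binding partners of β-catenin and also Wnt targets, and *Sp5* is a zinc finger target gene that acts on other Wnt targets. *Lef1* (chr3:131110471-131224356, plus strand) was at 4.00, 3.50 and 3.09 CPM with *Dnmt3a+/+* BM and at 7.96, 25.1, 22.0 and 15.8 CPM with *Dnmt3a+/Δ* BM. Its groups did not overlap even at *Dnmt3a+/Δ* BM tumor 1, and *Lef1* had the largest fold change of the 10 genes, 2.33 ± 0.41 on the log2 scale (SE; edgeR adjusted p = 0.361; exact permutation p = 0.0571; DESeq2 adjusted p = 2.3e-05). It was the 1 gene of the 10 that DESeq2 called in each of the 7 fits with 1 tumor left out. *Tcf7* (chr11:52252371-52283014, minus strand) was at 14.9, 18.7 and 19.7 CPM with *Dnmt3a+/+* BM and at 19.8, 43.4, 33.7 and 38.8 CPM with *Dnmt3a+/Δ* BM. Its groups were separated by a narrow margin between control tumor 3 and *Dnmt3a+/Δ* BM tumor 1, and its log2 fold change was 0.93 ± 0.28 (SE; edgeR adjusted p = 0.377; exact permutation p = 0.0571; DESeq2 adjusted p = 0.0958). *Sp5* (chr2:70474923-70477729, plus strand) was at 6.96, 6.04 and 13.1 CPM with *Dnmt3a+/+* BM and at 13.3, 43.1, 38.7 and 40.9 CPM with *Dnmt3a+/Δ* BM. Control tumor 3 and *Dnmt3a+/Δ* BM tumor 1 were nearly equal, whereas the other 3 *Dnmt3a+/Δ* BM tumors lay close together at a higher level, and the log2 fold change was 1.97 ± 0.47 (SE; edgeR adjusted p = 0.361; exact permutation p = 0.0571; DESeq2 adjusted p = 0.0036).

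The letters through which TCF/LEF factors bind DNA can be looked for in the promoters of these genes. RefSeq promoter windows on GRCm38.p6 were available here for 7 of the 10 genes (12 windows; *Notum*, *Znrf3* and *Apcdd1* had none), and the 250 bases before each start were searched on both strands for 3 motifs of TCF/LEF type, which overlap in their first 5 letters. The motif CTTTGAT was in 3.21% of the 32851 mouse windows, while 4.46% of windows held the motif CTTTGAA and 5.03% of them held the motif CTTTGTT in either direction. Any of the 3 was in 12% of all windows and in 1 of the 12 windows of these genes, which is no more than the share of all windows. The match was in *Sp5*, with CTTTGAT 104 bases before the start and, on the minus strand, the other motif that ends in T, read as AACAAAG on the plus strand, 222 bases before it. These 2 motifs, paired after the match had been seen, were together in 0.174% of the mouse windows. The *Sp5* window (chr2:70474673-70474922, plus strand) is shown because it holds both matches, in capitals, and the *Axin2* window (chr11:108920099-108920348, plus strand) because *Axin2* is the gene most used as a pathway readout and none of the 3 motifs is in it.
Sp5: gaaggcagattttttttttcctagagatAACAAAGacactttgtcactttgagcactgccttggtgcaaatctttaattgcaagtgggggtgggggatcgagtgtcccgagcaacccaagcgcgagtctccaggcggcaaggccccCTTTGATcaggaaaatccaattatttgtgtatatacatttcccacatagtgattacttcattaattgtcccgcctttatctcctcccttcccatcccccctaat
Axin2: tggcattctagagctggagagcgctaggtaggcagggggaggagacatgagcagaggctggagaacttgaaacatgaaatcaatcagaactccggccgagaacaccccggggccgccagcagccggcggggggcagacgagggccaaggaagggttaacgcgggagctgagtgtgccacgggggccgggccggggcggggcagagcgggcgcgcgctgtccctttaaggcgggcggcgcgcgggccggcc
A match describes the letters and not a bound site, and these windows do not reach enhancers or introns, through which many Wnt targets are controlled.

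Compared per exonic length, as TPM, which divides counts by that length before scaling, the 10 genes spanned a wide range. The length joins the exons of all annotated transcripts of a gene. TPM may therefore be too low for genes whose expressed transcripts are much shorter, and levels of different genes are compared only roughly. With *Dnmt3a+/+* BM, mean levels were 91.2 TPM for *Wif1*, 50.2 for *Notum*, 35.2 for *Nkd1*, 29.1 for *Axin2*, 22.0 for *Rnf43*, 15.9 for *Tcf7*, 9.39 for *Sp5*, 6.71 for *Apcdd1*, 4.28 for *Znrf3* and 0.955 for *Lef1*. Neighbours in this order overlapped in their ranges over tumors, except that *Wif1* was apart from *Notum*, *Tcf7* from *Sp5* and *Znrf3* from *Lef1*. With *Dnmt3a+/Δ* BM, the order was nearly kept, from 394 TPM for *Wif1* and 201.6 for *Notum* through 172.9 for *Nkd1* and 79.5 for *Axin2* to 13.5 for *Znrf3* and 5.99 for *Lef1*, with *Sp5* (46.9 TPM) now above *Tcf7* (37.5 TPM). In that group, the ranges of all neighbours overlapped. A secreted inhibitor was thus the most abundant of the 10 transcripts in both groups, and the gene with the largest fold change, *Lef1*, was the least abundant.

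The make-up of the TCF/LEF family, as shares of its summed expression, differed between the groups in these tumors, and the shares were not tested. Vertebrates have 4 such factors, of which *Tcf7l1* is known mainly as a repressor and *Tcf7l2* as the main intestinal partner of β-catenin. Summed over the 4 genes, expression was 33.9, 52.6 and 41.2 TPM in the *Dnmt3a+/+* BM tumors and 43.9, 86.5, 77.7 and 56.5 TPM in the *Dnmt3a+/Δ* BM tumors. *Lef1* made up 3.20, 2.04 and 1.72% of this sum in the *Dnmt3a+/+* BM tumors and 5.69, 11.5, 9.52 and 7.23% in the *Dnmt3a+/Δ* BM tumors. Its share was higher in every *Dnmt3a+/Δ* BM tumor than in any control. For *Tcf7*, the share was 37.7% ± 1.84 (SD, n = 3) in the controls and 55.6% ± 9.21 (SD, n = 4) in the *Dnmt3a+/Δ* BM tumors, and *Tcf7l1* had the opposite pattern, with 36.1% ± 3.32 (SD, n = 3) and 18.04% ± 7.67 (SD, n = 4). The share of *Tcf7l2* was also lower, with 23.9% ± 2.45 (SD, n = 3) and 17.9% ± 4.09 (SD, n = 4). Shares of the same sum depend on each other, so higher shares of *Tcf7* and *Lef1* by themselves lower the other shares. The level of *Tcf7l1* was lower, from 18.7, 30.5 and 28.1 CPM to 17.0, 9.41, 21.5 and 14.0 CPM (log2 fold change -0.73 ± 0.31 SE, edgeR adjusted p = 0.444), and *Dnmt3a+/Δ* BM tumor 3 lay above the lowest control. *Tcf7l2* had a log2 fold change of -0.09 ± 0.28 (SE, edgeR adjusted p = 0.941) and overlapped between the groups, as did *Ctnnb1*, which encodes β-catenin (0.18 ± 0.17 SE, edgeR adjusted p = 0.726).

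**Figure D2:**
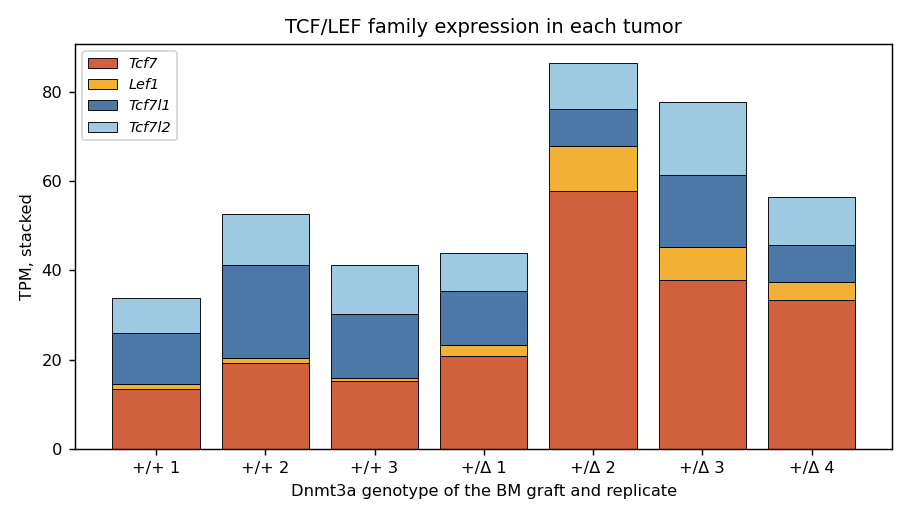
TPM of *Tcf7*, *Lef1*, *Tcf7l1* and *Tcf7l2* stacked in each of the 7 tumors (vertical axis from 0, 1 bar per tumor). The *Tcf7* and *Lef1* segments are taller in the *Dnmt3a+/Δ* BM bars, reaching a summed family level of 86.5 TPM in tumor 2, whereas the *Tcf7l1* segment is tallest in *Dnmt3a+/+* BM tumor 2.

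Ratios of 2 genes in the same tumor do not depend on library scaling, and 6 were compared. The log2 ratio of *Lef1* to *Tcf7l2* was -2.87, -3.39 and -3.93 in the *Dnmt3a+/+* BM tumors and -1.77, -0.04, -1.13 and -1.41 in the *Dnmt3a+/Δ* BM tumors, without overlap, a difference of 2.31. The ratio of *Lef1* to *Tcf7* was also separated, by a difference of 1.31 on the log2 scale. Both reached the smallest p that the design allows (exact permutation p = 0.0286), and neither passed adjustment over the 6 ratios (exact permutation, adjusted p = 0.0857). The *Axin2* to *Axin1* ratio differed by 1.24 (exact permutation p = 0.0857, adjusted p = 0.129), the *Tcf7* to *Tcf7l2* ratio by 1.00 (exact permutation p = 0.0571, adjusted p = 0.114) and the *Nkd1* to *Nkd2* ratio by 2.00 (exact permutation p = 0.171, adjusted p = 0.206).

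The order of the *Dnmt3a+/Δ* BM tumors was much the same from gene to gene. Tumor 1 was the lowest of its group in 9 of the 10 genes, and tumor 2 the highest in 8. Among all genes, tumor 1 was lowest in 26.9% and tumor 2 highest in 30.5%, but among the 922 genes higher at an unadjusted p under 0.05 these shares were 65.4% and 73.4%, so the order is common to the genes that separated the groups and is not particular to the 10. The median fold over the control mean was 4.03 in tumor 2, 3.88 in tumor 3, 2.62 in tumor 4 and 1.56 in tumor 1. Tumors 2, 3 and 4 are those whose deposited names carry the unexplained suffix. Tumor 1 lay above all 3 controls for 9 of the genes, *Rnf43* being the exception, and above its closest match, control tumor 1, for all 10, by 1.22- to 1.99-fold with a median of 1.42-fold. The share of all genes for which tumor 1 did so is not given here, so these counts have no background.

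The 2 transplantation experiments were compared separately in 1 edgeR fit with a term for each group in each experiment. All 10 genes were higher with *Dnmt3a+/Δ* BM in both, with a median log2 fold change of 1.42 in BMT18 (2 tumors against 2) and 1.63 in BMT8 (2 against 1). An unadjusted p under 0.05 for higher expression was reached by 7 of the 10 in BMT18, against 6.39% of all genes, and by 4 in BMT8, against 3.18%. BMT8 has 1 control tumor, which this fit assumes to vary like the tumors of the other groups, so its values are no replication of BMT18. In a fit of the 4 BMT18 tumors alone, 4 of the 10 reached that mark, against 3.58% of all genes. *Axin2* had log2 fold changes of 1.07 and 1.26, *Wif1* of 1.84 and 1.52, and *Lef1* of 2.14 and 2.62 in BMT18 and BMT8. *Apcdd1* was the gene that varied most, with 1.28 in BMT18 and 3.34 in BMT8. The test of the difference between experiments was under an unadjusted p of 0.05 for none of the 10 in edgeR and for 730 of all genes (4.62%), of which 0 passed adjustment.

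**Figure D3:**
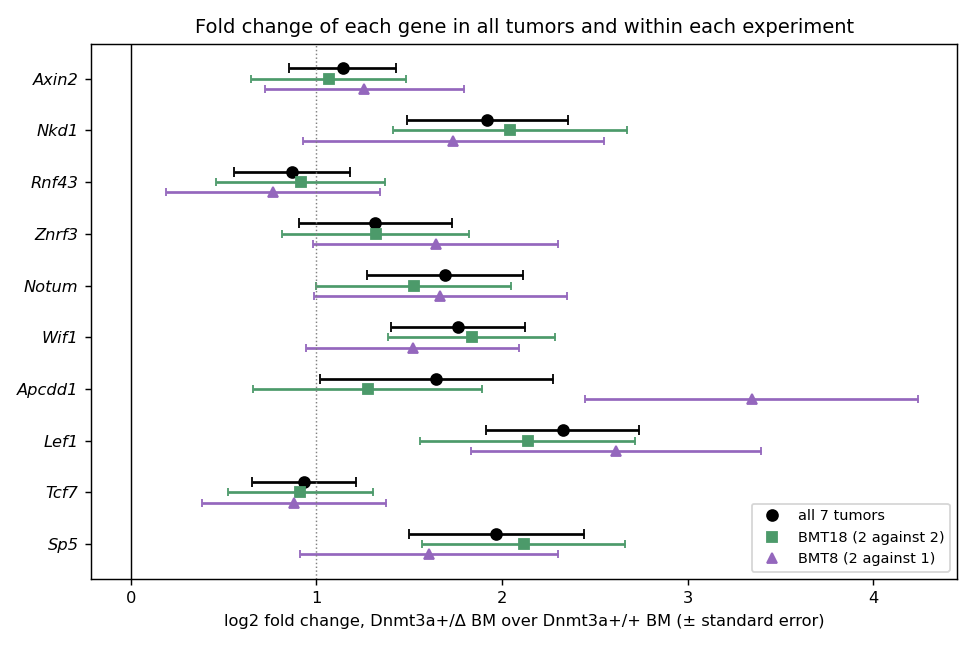
Log2 fold change of each gene (horizontal axis, ± SE) between the groups over all 7 tumors (black circles), with a dotted line at 1. Green squares give the change within BMT18 and purple triangles that within BMT8. Both are from 1 fit of all 7 tumors with a term for each group in each experiment. All estimates lie above 0, and within each gene the SE bars overlap, except for *Apcdd1*, where the BMT8 bar overlaps neither of the other 2.

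Cell type markers were summed in each tumor beside these results. The 10 epithelial markers summed to 16148 to 32986 CPM with *Dnmt3a+/+* BM and to 9627 to 21061 CPM with *Dnmt3a+/Δ* BM, and 9 of them had a log2 fold change below 0. With libraries scaled to the epithelial markers, the median log2 fold change of the 10 Wnt genes was 2.02, beside 0.43 over all genes. The 8 endothelial markers summed to 17.2 to 29.7 CPM with *Dnmt3a+/+* BM and to 29.9 to 146 CPM with *Dnmt3a+/Δ* BM. Of the 8, 5 were higher at an unadjusted edgeR p under 0.05, against 5.83% of all genes. The 8 fibroblast markers summed to 157 to 307 CPM with *Dnmt3a+/+* BM, to 238 to 363 CPM in 3 *Dnmt3a+/Δ* BM tumors and to 1031 CPM in tumor 2, the tumor in which 8 of the 10 Wnt genes were highest. No defining marker of endothelium or fibroblasts was at 0, and the part of these cells in the result was not tested.

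*Lef1* and *Tcf7* are also expressed in T cells, so T cell markers were set beside them. The 12 T cell markers summed to 34.5, 16.1 and 36.8 CPM in the *Dnmt3a+/+* BM tumors and to 38.4, 51.6, 33.6 and 18.6 CPM in the *Dnmt3a+/Δ* BM tumors (median log2 fold change -0.19). The sum was lowest in *Dnmt3a+/+* BM tumor 2 and highest in *Dnmt3a+/Δ* BM tumor 2, in which *Lef1* and *Tcf7* were highest too. *Cd3e*, a subunit of the T cell receptor complex, was at 0.64 to 1.71 CPM with *Dnmt3a+/+* BM and at 0.11 to 1.83 CPM with *Dnmt3a+/Δ* BM, and 2 of the 12 markers were at 0 in a tumor. The part of T cells in the *Lef1* and *Tcf7* results was not tested. Of the 12, only *Zap70*, a T cell receptor kinase, had an unadjusted p under 0.05 (1.28 to 2.74 CPM against 2.85 to 8.84 CPM). *Cd79a*, which marks B cells, was at 2.40 CPM or below in all tumors and at 0 in *Dnmt3a+/Δ* BM tumor 4.

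**Figure D4:**
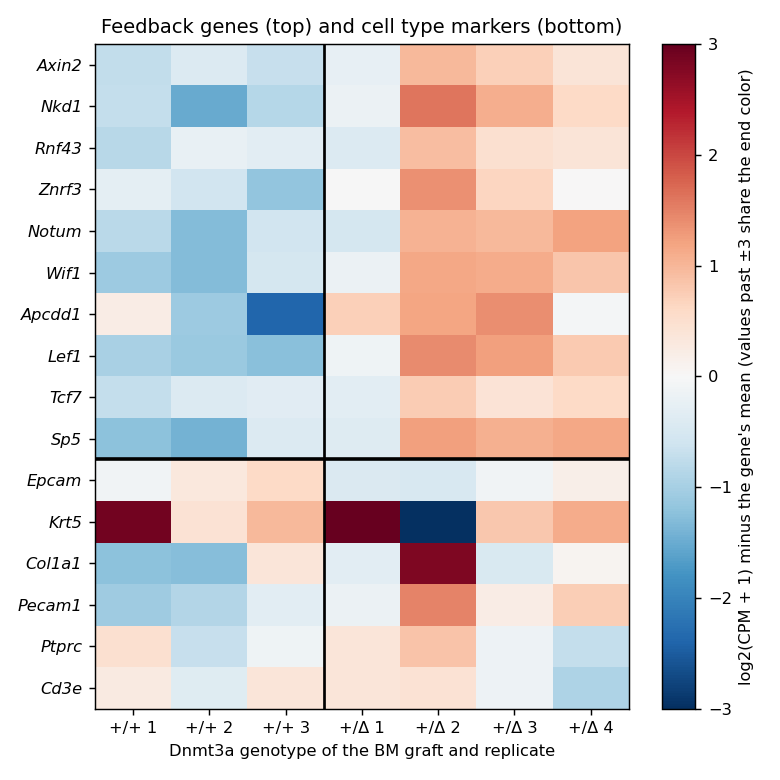
Log2(CPM + 1) minus the mean of each gene over the 7 tumors (color, limited to ±3) for the 10 Wnt genes (top) and 1 defining marker each of epithelium, squamous epithelium, fibroblasts, endothelium, leukocytes and T cells (bottom). Most of the Wnt genes are higher in *Dnmt3a+/Δ* BM tumors 2 to 4 than in tumor 1. In tumor 4, however, *Apcdd1* is below its level in tumor 1 and *Znrf3* is close to it, and *Rnf43* in tumor 1 lies within the controls. *Krt5* is high in *Dnmt3a+/+* BM tumor 1 and *Dnmt3a+/Δ* BM tumor 1, and *Cd3e* is lowest in *Dnmt3a+/Δ* BM tumor 4.

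Without the squamous-rich pair, *Dnmt3a+/+* BM tumor 1 and *Dnmt3a+/Δ* BM tumor 1, a comparison added after these values had been seen, the differences were larger. *Dnmt3a+/Δ* BM tumor 1 was the lowest of its group in 9 of the 10 genes, so leaving it out by itself raises the differences. Without it alone, the log2 fold change was 1.35 for *Axin2* and 1.72 for *Apcdd1*. Without control tumor 1 alone, it was 1.07 for *Axin2* and 2.55 for *Apcdd1*. Without both tumors of the pair, the median log2 fold change of the 10 genes was 1.98. All 10 were then at an unadjusted edgeR p under 0.05, against 5.68% of all genes. Log2 fold changes were then 1.29 for *Axin2*, 2.36 for *Nkd1*, 0.93 for *Rnf43*, 1.74 for *Znrf3*, 2.02 for *Notum*, 1.95 for *Wif1*, 2.64 for *Apcdd1*, 2.698 for *Lef1*, 1.03 for *Tcf7* and 2.14 for *Sp5*.

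Other genes of the pathway were counted in 6 lists that hold 106 genes by role, of which 90 were tested. Of these 90, 14 (15.6%) were higher and 2 (2.22%) lower at an unadjusted edgeR p under 0.05, against 5.83% and 5.20% of all genes. The median log2 fold change of the 90 was 0.25. After adjustment edgeR called 0 of them and DESeq2 6 as higher (*Dact1*, *Wnt6*, *Wnt7a*, *Dkk3*, *Prox1* and *Tnfrsf19*), against 1.51% of the genes it tested. Among the 14 tested genes of the nuclear β-catenin complex, 3 were higher and 1, *Tcf7l1*, was lower. The 3 were the co-repressors *Tle1* (log2 fold change 0.63 ± 0.22 SE) and *Tle3* (0.71 ± 0.24 SE) and the co-activator *Pygo1* (1.99 ± 0.72 SE), which was at 0.11 to 0.46 CPM with *Dnmt3a+/+* BM and at 0.45 to 2.20 CPM with *Dnmt3a+/Δ* BM. Of the 17 tested genes of the destruction complex and Dishevelled, 2 were higher: *Dact1*, a Dishevelled-binding protein, was at 0.24 to 0.75 CPM with *Dnmt3a+/+* BM and at 0.92 to 4.08 CPM with *Dnmt3a+/Δ* BM (log2 fold change 2.45 ± 0.66 SE), and *Csnk1e*, a kinase of the pathway, differed by 0.92 ± 0.29 (SE). The lowest of that list was *Dact2*, at -0.45 ± 0.19 (SE, edgeR adjusted p = 0.455). Of the 16 receptors and R-spondins tested, only *Lgr6*, an R-spondin receptor, was higher (0.90 ± 0.37 SE), and the list ranged from -0.53 for *Fzd5* to 1.23 for *Fzd9*, both Frizzled receptors, neither of which had an unadjusted p under 0.05.

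Among the 16 tested genes for Wnt ligands and their secretion, *Wnt6* and *Wnt7a* were higher. *Wnt6* was at 11.8, 4.25 and 11.4 CPM in the *Dnmt3a+/+* BM tumors and at 17.8, 41.6, 58.8 and 49.5 CPM in the *Dnmt3a+/Δ* BM tumors, without overlap (log2 fold change 2.20 ± 0.51 SE, edgeR adjusted p = 0.361). *Wnt7a* was at 0.016 to 0.12 CPM with *Dnmt3a+/+* BM, which is 1 to 4 counts a tumor, and at 0.17 to 1.67 CPM with *Dnmt3a+/Δ* BM. *Wnt7b*, the lowest of the list, had a log2 fold change of -0.84 ± 1.04 (SE) and was highest in the squamous-rich pair, at 74.0 and 55.2 CPM. The list of other Wnt inhibitors had 9 tested genes, not all of which encode secreted proteins. Of these, *Dkk3* (2.40 ± 0.66 SE) and *Dkk2* (1.77 ± 0.65 SE) of the Dickkopf family were higher, and *Kremen2*, a Dickkopf receptor, was lower (-1.05 ± 0.43 SE). *Dkk3* was at 11.3 to 17.8 CPM in the controls and at 22.5, 166, 61.7 and 44.1 CPM in the *Dnmt3a+/Δ* BM tumors, so tumor 2 was again the highest.

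The 18 other β-catenin targets tested included 17 with a log2 fold change above 0, against 50.2% of all genes. Of the 18, 4 were higher at an unadjusted edgeR p under 0.05, against 5.83% of all genes. *Prox1*, a homeobox factor, was at 32.9, 25.7 and 26.6 CPM in the *Dnmt3a+/+* BM tumors and at 60.3, 177, 128 and 93.3 CPM in the *Dnmt3a+/Δ* BM tumors (log2 fold change 2.01 ± 0.36 SE, edgeR adjusted p = 0.361). *Tnfrsf19*, a receptor of the tumor necrosis factor family, differed by 2.17 ± 0.59 (SE) and *Mmp7*, the protease matrilysin, by 1.26 ± 0.38 (SE). *Myc* was at 53.1 to 53.9 CPM in the controls and at 64.8 to 89.7 CPM in the *Dnmt3a+/Δ* BM tumors, a small difference (0.47 ± 0.15 SE, edgeR adjusted p = 0.384) without overlap. The only target below 0 was the receptor *Ephb2* (-0.14 ± 0.28 SE, edgeR adjusted p = 0.900). The 10 feedback genes and TCF factors had a median log2 fold change of 1.67, beside 0.41 for these other targets, and the difference between the lists was not tested.

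**Figure D5:**
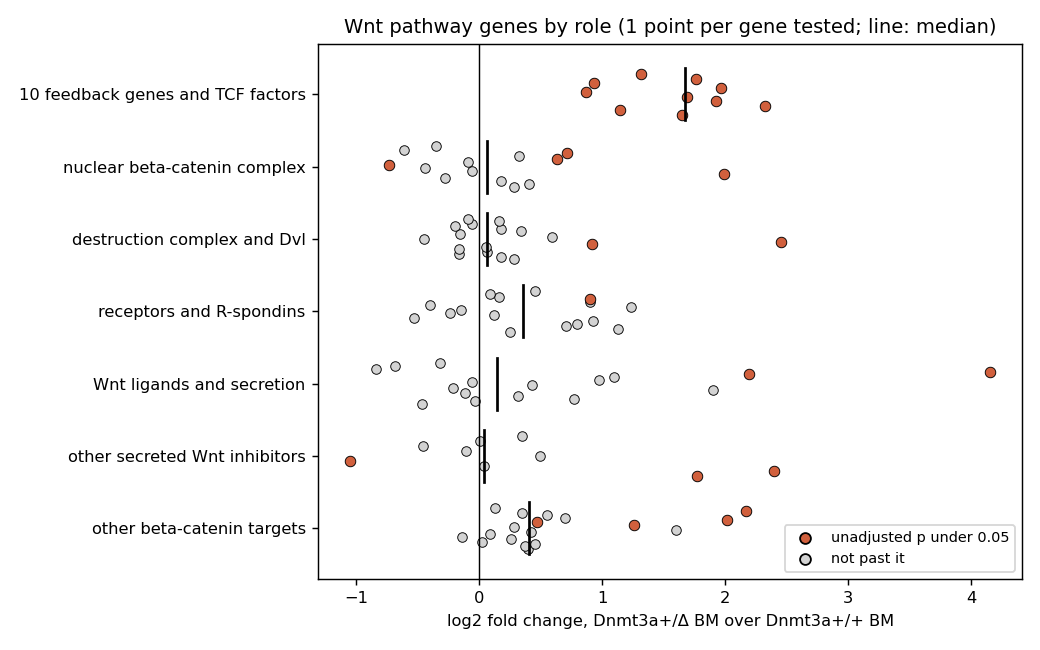
Log2 fold change of every tested gene (1 point each) of the 10 Wnt genes and of 6 pathway lists, with orange for an unadjusted edgeR p under 0.05 and a line at each median. The 10 Wnt genes are all orange and centre on 1.67, whereas the 6 lists centre between 0.04 and 0.41 with 14 points higher and 2 lower in orange.

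The genes whose pattern over the 7 tumors was most like those of *Axin2* and *Lef1* were ranked by the root mean square (RMS) difference of mean-centred log2 CPM, over all tested genes outside the 10. For *Axin2* they were *Cep97* (RMS 0.118), *Rere* (0.126), *Smad9* (0.158), *Amot* (0.160) and *Zc2hc1c* (0.173). Within the 10, the nearest to *Axin2* were *Rnf43* (RMS 0.191) and *Tcf7* (0.211), and *Apcdd1* was farthest (0.952). For *Lef1* they were *Amer2* (RMS 0.162), *Tbx3* (0.169), *Prox1* (0.198), *Adamts17* (0.204) and *Prex2* (0.212), all 5 nearer than any of the 10, of which *Nkd1* (0.316) came closest. *Tbx3*, a T-box factor, was at 13.1 to 19.4 CPM in the controls and at 33.9, 132, 79.3 and 62.0 CPM in the *Dnmt3a+/Δ* BM tumors, the same order of tumors as for *Lef1*.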

How the data were processed

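RNA from 7 whole colon tumors was sequenced after poly(A) enrichment with a directional library kit. Upstream, the authors used Trimmomatic for trimming, STAR for alignment to mm10 and RSEM for quantification. The deposited values are RSEM's estimated counts, which are not normalized and are all whole numbers, and the annotation release is not given in the sources used here. Positions, symbols and exonic lengths were taken from GENCODE M21 on GRCm38, which matched 42462 of 43346 identifiers, and the unmatched ones held 0.104% of the counts.

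Counts were tested with edgeR 4.0.16 (TMM, filterByExpr, glmQLFit, glmQLFTest, no covariate) over 15810 genes with Benjamini-Hochberg adjustment, with DESeq2 1.42.0 as the alternative. A call needed an adjusted p under 0.05 and a log2 fold change over 1 in size, as in the study. The log2 CPM values used a prior count of 2. Exact permutation tests were two-sided over 35 splits. The steps were tested on simulated data. Promoter windows are from RefSeq.

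The 10 genes and the lists were chosen with earlier results of these data known. Genes named outside the 10 are the paralogs and partners *Axin1*, *Nkd2*, *Tcf7l1*, *Tcf7l2* and *Ctnnb1*, the highest and lowest of each pathway list with at most 4 of the lowest p, the 5 genes nearest to *Axin2* and to *Lef1*, *Dnmt3a* and defining markers. *Zap70* and *Notumos* were added after their values had been seen. The p-values measure the spread between these tumors. Total counts were 38472738 to 64314999 per tumor, and the number of tumors limits the precision.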

Additional observations from a re-analysis of the deposited data

Results flagged for a closer look

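Within the 4 *Dnmt3a+/Δ* BM tumors, 3 of the 38 groups of values examined held a tumor farther from the others than Dixon's 95% critical value allows, where chance gives about 1 in 20, or 1.9. *Sp5* was lowest in *Dnmt3a+/Δ* BM tumor 1, at 13.3 CPM, with the other 3 tumors at 38.7 to 43.1 CPM. *Col1a1*, which encodes a fibrillar collagen, was highest in *Dnmt3a+/Δ* BM tumor 2, at 238.6 CPM, with the other 3 at 24.1 to 35.6 CPM. The summed level of the 8 fibroblast markers was highest in the same tumor, at 1031 CPM, with the other 3 at 238 to 363 CPM.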

How the results depend on the processing

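The log2 fold changes of the 10 genes were above 0 in all 250 values over 25 alternatives (other scalings, filters, dispersion settings and tools, the replicate block, 1 experiment alone, the experiment as a covariate, and tumors left out), and 40 of these values passed both thresholds of the call. The number of the 10 called was 0 with edgeR, 6 with DESeq2, and 1 to 9 with DESeq2 and 1 tumor left out. For the fits with a tumor left out, the share of all genes called is not given here. *Lef1* was called in 7 of these 7 fits, *Nkd1* and *Wif1* in 6, *Sp5* in 5, *Notum* in 4, *Znrf3* in 2 and the others in 1. With BMT18 alone, and so fewer tumors, 4 in place of 10 genes had an unadjusted p under 0.05, against 3.58% in place of 5.83% of all genes. Over the pathway lists, 16 genes had one, with 8 (without *Dnmt3a+/+* BM tumor 2) to 20 when a tumor was left out. The exact test reached its smallest p for 1 gene on log2 CPM, and for 0 on CPM and with library sizes alone. With a tumor left out it found 0 genes and 0 ratios under 0.05, since it cannot go below 0.0667 or 0.1 there. The log2 differences were then 1.96 to 2.57 for *Lef1* to *Tcf7l2* and 1.14 to 1.53 for *Lef1* to *Tcf7*. Library sizes alone moved the median log2 fold change of all genes to 0.21 and of the 10 to 1.91.

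The replicate numbers were not taken as pairs in the main fit. Deviations of same-numbered tumors correlated at 0.57, 0.07 and -0.04, and *Dnmt3a+/+* BM tumors 1, 2 and 3 correlated best with *Dnmt3a+/Δ* BM tumors 1, 3 and 4. So few tumors cannot decide whether any were paired. With the replicate number as a block, 1885 in place of 1744 genes had an unadjusted edgeR p under 0.05, among them all 10 genes, and 0 were called. *Dnmt3a+/Δ* BM tumor 4 has no control of its number, so it adds nothing to the fold changes of that fit.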
